A study of Mus musculus with 55 samples.

Results

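The genes described here are App, the amyloid precursor protein gene, its family members Aplp1 and Aplp2, and 6 genes of the secretases that cut these proteins, Bace1, Adam10, Psen2, Psenen, Ncstn and Aph1a. They are 9 of the 55487 genes counted in dorsal hippocampal RNA of 55 mice, taken by name after App was seen to be low in the younger diestrus mice of these data. Levels are counts scaled to library size (CPM), and all 9 genes passed the filter on low levels (over 1 CPM in 10 or more libraries), so they were among the 16168 genes tested. Because App entered the list through its values in younger against older diestrus mice, that contrast is given as a description, without a test. Tests were made only between genotypes, between the other estrous stages, between sexes and between age classes outside diestrus.

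WT and Cnih3 KO mice on a C57BL/6J background were collected as males or as females in metestrus, diestrus, proestrus or estrus, staged by vaginal cytology, with no experimental treatment. The WT groups held 5 males and 4 metestrus, 6 diestrus, 5 proestrus and 7 estrus females. The KO groups held 7 males and 5 metestrus, 6 diestrus, 4 proestrus and 6 estrus females. Cnih3 encodes an auxiliary subunit of AMPA receptors, and every KO mouse lacked exon 4 of this gene in all tissues. RNA came from the supernatant of a detergent lysate spun at low speed, libraries were made from poly-A RNA, and each library came from 1 mouse. Mouse ages ran from 10.86 to 23.71 weeks. WT mice were a mix of littermates of the mutants and offspring of B6 pairs. With a boundary at 14 weeks, 7 of the 12 diestrus mice were younger (3 WT and 4 KO, 10.86 to 13.86 weeks) and 5 were older (3 WT and 2 KO, 16.29 to 23.43 weeks). Outside diestrus, 10 mice were younger (12 to 13.57 weeks) and 33 older (14.57 to 23.71 weeks).

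App is a membrane protein of neurons and other cells that is cut at its ectodomain either by an alpha-secretase, mainly the metalloprotease Adam10, or by the beta-secretase Bace1. The remaining stub is cut within the membrane by gamma-secretase, a complex of a presenilin such as Psen2, nicastrin (Ncstn), an Aph1 subunit and the small subunit encoded by Psenen. Cutting by Bace1 and then gamma-secretase releases the amyloid beta peptide, which Aplp1 and Aplp2 do not yield, although the same enzymes cut them. The hippocampus expresses these genes and is among the brain regions affected in Alzheimer's disease.

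On GRCm38, App lies at chr16:84949685-85173766 on the minus strand, with 11 annotated transcripts over 224.1 kb. Aplp1 (chr7:30434982-30445535) and Psenen (chr7:30561863-30563627) are 116.3 kb apart on the minus strand of chromosome 7. Aplp2 (chr9:31149557-31211815, minus strand), Bace1 (chr9:45838580-45864399, plus strand) and Adam10 (chr9:70678997-70780229, plus strand) share chromosome 9. Psen2 (chr1:180227004-180263438, minus strand) and Ncstn (chr1:172066013-172082795, minus strand) are on chromosome 1, and Psen2 is 1.09 Mb from the deleted gene Cnih3. Aph1a is at chr3:95893969-95898288 on the plus strand. Strandedness of the counting is not given in the sources used here, and some members share exon bases with genes of the opposite strand. Bace1 shares 15.36% of its exon bases with Rnf214, 14.98% with Gm49338 and 2.13% with Gm16536, Aph1a 12.9% with Car14, Psenen 9.33% with U2af1l4 and 8.71% with Gm49396, Ncstn 4.91% with Copa, and App 0.87% with the antisense gene Gm49227, so the counts of these members are uncertain. No exon bases of Aplp1, Aplp2, Psen2 or Adam10 were shared.

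App transcripts differ in whether they hold exons 7, 8 and 15. Exons 7 and 8 are shown because App-206 holds both and App-201 holds neither. App-206 had the most counts of the coding transcripts measured here, and App-201 was not among those measured. Exon 7 (168 bases, chr16:85043576-85043743, minus strand) encodes the Kunitz protease inhibitor domain and is in 6 of the 11 transcripts. Exon 8 (57 bases, chr16:85040251-85040307, minus strand) encodes the short OX-2 segment and is in 4. Both were read from the 18-exon transcript App-206, 5′ to 3′ from the GENCODE transcripts, with no letters capitalised.
App exon 7: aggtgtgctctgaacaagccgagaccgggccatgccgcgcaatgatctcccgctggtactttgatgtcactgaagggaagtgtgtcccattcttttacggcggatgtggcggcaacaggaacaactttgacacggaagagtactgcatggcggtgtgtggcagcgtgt
App exon 8: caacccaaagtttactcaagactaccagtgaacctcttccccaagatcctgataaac

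The promoters of App and Aplp1 are shown because these were the members whose levels in all younger diestrus mice lay below those of all other mice. The runs end at the RefSeq gene start on GRCm38.p6, and for App 59 bases nearest the start were left off because GENCODE counts them as exon. The printed App run is chr16:85173767-85173957 and the Aplp1 run is chr7:30445583-30445832, both on the minus strand, and capitals mark a GC box.
App promoter: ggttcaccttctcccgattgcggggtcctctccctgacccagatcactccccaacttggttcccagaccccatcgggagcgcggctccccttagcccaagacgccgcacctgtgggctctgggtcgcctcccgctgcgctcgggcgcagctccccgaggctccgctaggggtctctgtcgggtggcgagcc
Aplp1 promoter: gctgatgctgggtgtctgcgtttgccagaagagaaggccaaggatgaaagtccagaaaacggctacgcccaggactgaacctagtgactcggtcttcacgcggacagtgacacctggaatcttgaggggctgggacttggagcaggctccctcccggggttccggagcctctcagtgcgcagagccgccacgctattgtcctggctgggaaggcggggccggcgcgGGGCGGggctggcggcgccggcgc

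Windows of 250 bases before a RefSeq start were found for 8 of the 9 genes, 10 windows in all, with none for Bace1. Both Psen2 windows and a Psenen window (chr7:30563205-30563454) lie inside the annotated gene. Annotated exons reach the first base of both Psenen windows and of a Psen2 window (chr1:180256301-180256550). In the Ncstn window they follow the first 50 bases. The GC box GGGCGG, sought on both strands, was in the full windows of App (where it lies in the unprinted 59 bases), Aplp1, Aplp2, Aph1a and Adam10 and in 1 of the 2 Psen2 windows, against 32.7% of the 32851 windows of all genes. In Adam10 a pair of these boxes overlap by a base. The E box CACGTG was in the Psen2 window at chr1:180245951-180246200, inside the gene, and in the window of Adam10 (6.0% of all windows). The core of nuclear receptor response elements, AGGTCA, was in a window of Psenen and in that of Ncstn (14.0% of all). TATAAA (12.4% of all) and the cyclic AMP response element TGACGTCA (1.5% of all) were in none. The GC content of the App window was 70.8% and that of the Aplp1 window 66.0%, against a median of 52.4% over all windows. These are matches of letters, and binding was not measured.

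Total counts per library ran from 25881295 to 63547098, and those of the 7 younger diestrus libraries from 52307959 to 58932939. The lowest count of any member in any library was 261, for Psen2, and App never had fewer than 9605. Mean Cnih3 levels ran from 34.7 to 44.2 CPM over the WT groups and from 28.01 to 35.0 CPM over the KO groups, so counts over the whole gene, of which a single exon was removed, check the genotype labels only weakly. Markers of neurons (8 genes), astrocytes (8), oligodendrocytes (15), microglia (8) and hippocampal neuron types (6) were detected in every group. Choroid plexus markers (9 genes) summed to between 113 and 2824 CPM outside diestrus. In bulk tissue, fewer cells of a type and less RNA per cell cannot be told apart. Replicates are separate mice, so p-values measure the spread between animals. The main model, with 10 group means, gave each diestrus group a single mean. The distance between younger and older diestrus mice, wide for App and Aplp1, thus entered the error of every contrast of that model. A member that did not pass there is not thereby shown to be unchanged.

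Divided by the bases of all annotated exons, the levels outside diestrus (43 mice) were highest for Aplp1, at 144 ± 29.3 CPM per kb (SD). Psenen followed at 53.7 ± 10.6, and App at 38.9 ± 5.03 stood beside Aplp2 at 38.4 ± 4.74 CPM per kb. Adam10 reached 12.8 ± 2.74, Ncstn 10.1 ± 1.56 and Bace1 8.19 ± 0.79 CPM per kb. Aph1a at 4.11 ± 0.73 and Psen2 at 2.82 ± 0.45 were the lowest of the 9. On this scale the substrates were well above most of the enzymes, with the small subunit Psenen as the exception. The order depends on annotated length. The App divisor was 12996 bases, exons of retained-intron transcripts included, while the coding transcripts App-206 and App-204 hold 8167 and 3264 bases. A shorter divisor would raise the App value.

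App stood apart in younger diestrus. The 3 younger WT diestrus mice had 187, 211 and 220 CPM, and the 4 younger KO diestrus mice 203, 224, 227 and 276 CPM. The 3 older WT diestrus mice had 448, 479 and 546 CPM, and the 2 older KO diestrus mice 402 and 533 CPM. Every younger diestrus mouse was below every older one, in both genotypes, and also below all 43 mice outside diestrus, which ran from 371 to 673 CPM with a median of 514. Just inside the age boundary, KO diestrus mouse 2 (13.86 weeks) had 203 CPM, and just outside it KO diestrus mouse 1 (16.29 weeks) had 402 CPM. The fitted difference of younger from older diestrus mice was -1.20 (SE 0.12) on the log2 scale in WT and -1.03 (SE 0.14) in KO, where the medians over all 16168 genes were -0.03 and 0.01. Over both genotypes 454 genes had a lower difference than App.

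**Figure D1:**
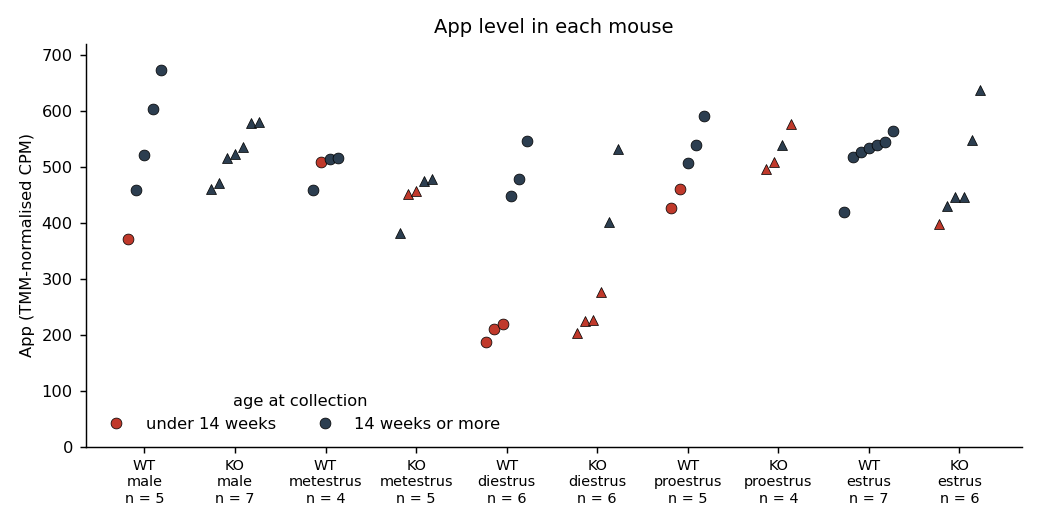
App level of each of the 55 mice in CPM after TMM scaling (linear axis from 0), by sex or estrous stage and genotype, with circles for WT, triangles for KO, red for mice under 14 weeks and dark for mice of 14 weeks or more. The 7 red points of the diestrus groups lie between 187 and 276 CPM, and all other points, red ones outside diestrus included, lie between 371 and 673 CPM.

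Younger mice of the other groups did not share that level. The 10 younger mice outside diestrus had App between 371 and 578 CPM (median 459), and the 33 older ones between 383 and 673 CPM (median 521). The lowest of the 10 was WT male mouse 1 at 371 CPM and the highest KO proestrus mouse 1 at 578 CPM. With 12 groups in the model, younger minus older mice outside diestrus differed in App by -0.07 (SE 0.07, FDR 0.661, limma). With age in weeks as a number over the 43 mice, App was higher by 0.004 log2 units for each week younger (SE 0.010, FDR 0.838, limma). The youngest mice outside diestrus were 12 weeks old, and 4 of the 7 younger diestrus mice were younger than that (10.86 to 11.71 weeks). KO diestrus mouse 2, at 13.86 weeks, was older than all 10 of the younger mice outside diestrus. The part of age in the diestrus levels was not tested.

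Age was not the only property the 7 mice shared. All 7, and no other mouse of the series, had a title made of a 3-digit number alone, and all 7 came from parents recorded as CNIH3 x B6. That parental type was also recorded for every other KO mouse and for some WT mice outside diestrus. Of the 5 older diestrus mice, WT mice 1 and 2 had B6 x B6 parents (App 546 and 479 CPM), while WT mouse 6 and KO mice 1 and 6 had CNIH3 x B6 parents (448, 402 and 533 CPM). The part of parental type in the App level was not tested. Age class, mouse numbering and whatever was shared by mice numbered together cannot be told apart in diestrus.

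Across 12 groups, with diestrus split by age, mean App was lowest in the younger WT diestrus mice (205.8 ± 17.4 CPM, SD, n = 3) and next in the younger KO diestrus mice (233 ± 30.7, n = 4). The other 10 groups ran from 449 ± 38.8 CPM in KO metestrus (n = 5) to 530 ± 36.2 CPM in KO proestrus (n = 4). The step of 216 CPM between younger KO diestrus and KO metestrus was the only one between neighbours in this order that exceeded the SDs of both groups. Between those ends came older KO diestrus (468 ± 92.3, n = 2), KO estrus (485 ± 90.3, n = 6), older WT diestrus (491 ± 50.0, n = 3), WT metestrus (499 ± 27.4, n = 4) and WT proestrus (505 ± 64.4, n = 5). WT estrus (521 ± 46.8, n = 7), KO males (524 ± 46.8, n = 7) and WT males (525.7 ± 118, n = 5) completed the order, and neighbours in it did not differ beyond their spread.

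The other precursor family members were low in the same mice. Aplp1, a neuronal paralog of App, had 187, 188 and 213 CPM in the younger WT and 175, 183, 202 and 230 CPM in the younger KO diestrus mice. Older diestrus mice had 348, 371 and 656 CPM (WT) and 362 and 465 CPM (KO), and mice outside diestrus 280 to 707 CPM with a median of 433. The 7 younger diestrus mice were thus below all 48 others for Aplp1 as for App. Its difference from older diestrus was -1.04 (SE 0.18) in WT and -1.09 (SE 0.21) in KO. Aplp2, the ubiquitous paralog, had 124 to 169 CPM in younger and 215 to 239 CPM in older diestrus mice. Its difference was -0.79 (SE 0.12) in WT and -0.58 (SE 0.14) in KO, and its younger diestrus values overlapped those outside diestrus, which began at 167 CPM.

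Of the enzymes that cut the ectodomain, the alpha-secretase gene Adam10 had 35.8, 35.9 and 38.5 CPM in the younger WT and 41.4, 43.9, 51.5 and 51.7 CPM in the younger KO diestrus mice. All 5 older diestrus mice were above these, at 63.5 to 76.4 CPM, but the mice outside diestrus ran from 28.8 to 93.7 CPM and overlapped both. The difference was -0.86 (SE 0.16) in WT and -0.56 (SE 0.19) in KO. The beta-secretase gene Bace1 had 37.9 to 46.8 CPM in younger and 50.0 to 58.8 CPM in older diestrus mice, a smaller difference of -0.38 (SE 0.10) in WT and -0.44 (SE 0.11) in KO.

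The gamma-secretase genes did not move as one. Psen2, a presenilin carrying the catalytic site, had 5.51 to 8.95 CPM in younger and 9.53 to 12.7 CPM in older diestrus mice, a difference of -0.72 (SE 0.16) in WT and -0.52 (SE 0.18) in KO. Ncstn, the subunit that admits substrates, had 25.7 to 36.4 CPM in younger and 36.6 to 52.7 CPM in older mice, with differences of -0.51 (SE 0.15) and -0.55 (SE 0.17). The ranges of Ncstn were all but contiguous, with 36.4 CPM in KO mouse 4 and 36.6 CPM in WT mouse 6. Aph1a, the scaffold subunit, had 8.71 to 13.0 CPM in younger and 10.5 to 14.3 CPM in older mice, so its ranges overlapped. Psenen went the other way, with 86.1, 93.9 and 105 CPM in the younger WT and 68.2, 69.4, 75.9 and 84.3 CPM in the younger KO diestrus mice. Older diestrus mice had 58.8 to 67.8 CPM of Psenen, below all 7 younger ones, and the difference was 0.61 (SE 0.13) in WT and 0.18 (SE 0.16) in KO.

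**Figure D2:**
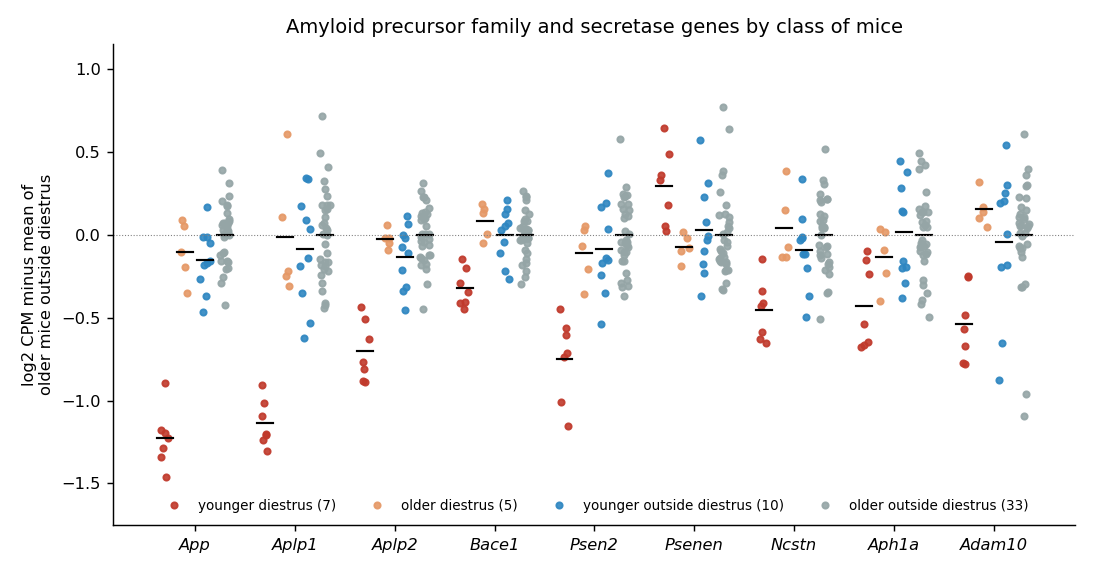
Log2 CPM of the 9 genes in each mouse minus the mean of the 33 older mice outside diestrus, in 4 classes of mice (numbers in the key), where each point is a mouse and each bar the mean of a class. The 7 younger diestrus mice are below every other mouse for App and Aplp1, are below the 5 older diestrus mice for 7 genes, and are above them for Psenen.

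Counted over both genotypes, the 7 younger diestrus mice did not overlap the 5 older ones in 8 of the 9 genes, lower in 7 and higher in 1. Among all genes tested 9.51% were lower and 4.91% higher without overlap. Against all 48 other mice, App and Aplp1 were lower without overlap, where 1.42% of all genes were. Since App was chosen on this contrast and its relatives with it, nothing is read from these counts. The median difference of the 9 genes was -0.72 in WT and -0.55 in KO, and 2 members were among the 598 genes (3.70%) that were at or under -1 on average.

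Other transcripts moved with the class of mice in diestrus. A list of 7 RNAs kept in the nucleus, among them Malat1 and Meg3, summed to 582 to 983 CPM in the younger and 2591 to 4236 CPM in the older diestrus mice, and 6 of the 7 were lower without overlap. The other 48 mice ran from 898 to 4281 CPM for this sum, and 3 of the 7 RNAs were below all of them. Oligodendrocyte markers summed to 3415 to 4407 CPM in the younger and 3944 to 6395 CPM in the older mice, with 8 of 15 lower without overlap and 6 of 15 below all 48 other mice. Astrocyte markers summed to 2403 to 2776 against 1751 to 2205 CPM, with 3 of 8 higher without overlap. Neuron markers summed to 11046 to 12486 against 9240 to 10873 CPM, with 2 of 8 higher and 2 lower. Choroid plexus markers (208 to 1316 against 138 to 313 CPM), microglia markers (197 to 287.2 against 218 to 243 CPM), mitochondrial mRNA (16524 to 26285 against 14690 to 25211 CPM) and hippocampal markers (939 to 1107 against 870 to 1056 CPM) overlapped in their sums. Among single genes of these lists, 3 of 6 hippocampal markers and 2 of 8 microglia markers were lower without overlap, and 1 microglia marker and 1 of 13 mitochondrial mRNAs were higher. No gene of these lists was at 0 throughout either class. The part of these transcripts in the low App level was not tested.

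The remaining pathway was represented by 55 listed genes, of which 53 were tested. Of these, 13 were lower and 2 higher in the 7 younger than in the 5 older diestrus mice without overlap, where 9.51% of all genes were lower and 4.91% higher. Sorting receptors that move App between compartments were among the lower ones. Sort1 differed by -0.92 in WT and -0.91 in KO, Sorl1 by -0.90 and -0.93, Sorcs1 by -1.15 and -1.09, and the endocytic receptor Lrp1 by -0.87 and -0.76, while the other 9 sorting and trafficking genes overlapped. None of the 15 adaptor and App-binding genes was lower, and the adaptor Apba2 was higher (0.48 in WT, 0.44 in KO). Of 4 other sheddases tested, Adam17 (-0.999 and -0.34), Adam9 (-0.68 and -0.56) and Adam19 (-0.92 and -0.82) were lower. Of 11 other substrates of the secretases, Sez6, Sez6l, Chl1 and L1cam were lower, and Sez6l, a Bace1 substrate of neurons, was below all 48 other mice (-1.12 in WT and -0.88 in KO). Among 7 genes linked to breakdown of the peptide, Ece1 (-0.71 and -0.72) and Ctsb (-0.57 and -0.58) were lower. Cst3 of that list, which encodes the protease inhibitor cystatin C and not a peptide-degrading enzyme, was higher (0.85 and 0.54). The gamma-secretase subunits Aph1b (-0.62 and -0.20) and Aph1c (-0.41 and -0.44) overlapped between the classes, and reads of Aph1b and Aph1c, which are near-identical copies, may be split between them.

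**Figure D3:**
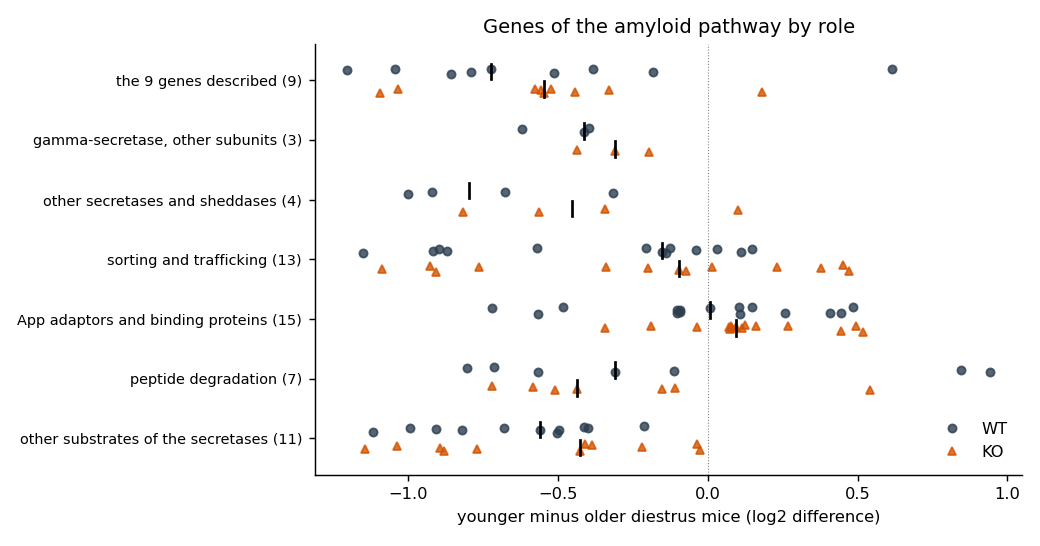
Fitted log2 difference of younger minus older diestrus mice for the 9 genes and for 53 further genes of the amyloid pathway grouped by role, with circles for WT, triangles for KO and black bars for the medians. The medians of the sorting and adaptor groups are near 0 (between -0.15 and 0.10), while those of the 9 genes (-0.72 and -0.55) and of the other sheddases (-0.80 and -0.45) are lower.

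App transcripts were examined in a table that holds 10 of its 11 annotated transcripts. App-201, which lacks exons 7 and 8, was not analysed here. Of the estimated counts on the 10, uncorrected for length, App-205, a 2-exon transcript with a retained intron, took 63.6% and App-206, a coding form with exons 7, 8 and 15, 27.3%. These are shares among the 10 alone and not of all App RNA. The 10 summed to a mean of 144.7 transcript CPM outside diestrus, against 505.6 CPM for the App gene, on scales that differ. The coding forms App-203 and App-207, which hold exons 7 and 8 but not 15, took 0.08% and 0.40%. The other 8 took under 5% each, among them App-204, a coding form with exon 7 but neither exon 8 nor 15 (3.80%). App-206 had 15.98 to 26.4 transcript CPM in the 7 younger diestrus mice and 30.0 to 45.0 in the 5 older ones. Outside diestrus it ran from 26.3 to 53.3, and the lowest of these 43 mice, WT proestrus mouse 2, was alone in overlapping the younger diestrus range. App-205 varied far more, from 9.10 to 296 transcript CPM outside diestrus, and the 7 younger diestrus mice, at 19.5 to 57.3, lay within that range and overlapped the older diestrus mice (22.3 to 109).

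**Figure D4:**
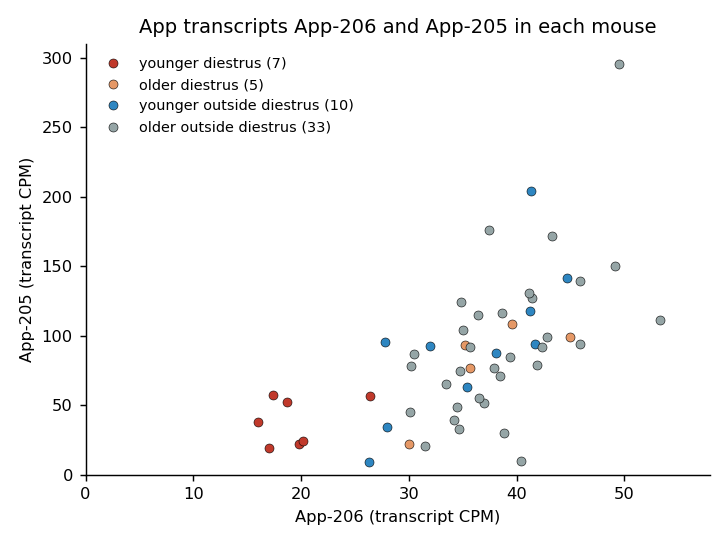
Transcript CPM of App-206 (a coding form with exons 7, 8 and 15) against App-205 (retained intron) in each of the 55 mice, coloured by class of mice. Younger diestrus mice are separated along the App-206 axis, at 15.98 to 26.4, from all but 1 of the other mice, and not along the App-205 axis.

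The share of App-205 among these counts was compared outside diestrus, where the choice of App did not use it. Outside diestrus it was 61.7% ± 13.4 (SD) in 21 WT and 59.0% ± 14.9 in 22 KO mice, and the difference weighted by group was -1.17 percentage points (two-sided permutation test, p = 0.812, adjusted over 2 tests p = 0.922). Younger mice outside diestrus had 61.0% ± 16.6 and older ones 60.1% ± 13.53, with a difference of -0.44 points once group means were removed (permutation test, p = 0.922, adjusted p = 0.922). Outside diestrus the share thus varied more between mice than between genotypes or age classes. Among the younger diestrus mice the 3 WT values were 69.0, 72.6 and 72.6% and the 4 KO values 46.6, 47.45, 47.55 and 65.2%. The KO mice were all lower, with a difference of means of -19.7 points (exact two-sided permutation test, p = 0.0571, the smallest that 3 against 4 mice can give, adjusted over 3 tests p = 0.171). That comparison was added after its values, which did not overlap, were seen. Its p-value was thereby fixed beforehand, and nothing is read from it. Ages also differed between these WT and KO mice, and their part was not tested.

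Genotype was tested within each stage, in males and over all groups outside diestrus. None of the 9 genes was called at an FDR under 0.05 (limma, 10 group means) in KO against WT metestrus, proestrus, estrus or males, or over these groups together, and none had an unadjusted p under 0.05 in any of the 5. The shares of all genes called were 0.0247% in metestrus, 0.315% in proestrus, 0.179% in estrus, 0.00619% in males and 2.23% over the groups together (361 genes). App differed over these groups by -0.03 (SE 0.08, FDR 0.910). Fitted differences of the 9 genes lay between -0.04 and 0.06. Psen2, the member nearest to Cnih3, differed by 0.03 (SE 0.06, FDR 0.904), at 12.2 ± 1.96 CPM over all 43 mice. None of the 53 other pathway genes was called in the same 5 comparisons.

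Within diestrus the genotypes could be compared in an age class, a contrast which the choice of members did not use. Ages within the younger class were not equal. The 4 KO mice were 10.86 to 13.86 weeks old (median 11) and the 3 WT mice 11.71 to 12.29 weeks (median 12.29). The part of age in weeks and of mouse numbering in the genotype differences was not tested. Among younger diestrus mice Psenen was lower in KO than in WT (74.4 ± 7.36 CPM, n = 4, against 94.9 ± 9.35 CPM, n = 3), a difference of -0.39 (SE 0.11, FDR 0.0496, limma). The 4 KO values, 68.2 to 84.3 CPM, lay below the 3 WT values, 86.1 to 105 CPM. It was 1 of 285 genes called (1.76%), none of 5 other analyses called it (FDR 0.0535 to 0.606), a fit with the title prefix as a random block did (FDR 0.0482), and it lost its call without any of 27 single mice (FDR up to 0.224, without WT diestrus mouse 4). Cnih3 itself did not separate these mice, at 26.1 ± 4.26 CPM in KO and 28.6 ± 1.55 CPM in WT. App was 0.13 higher in KO (SE 0.10, FDR 0.484) and Adam10 0.33 higher (SE 0.14, FDR 0.147), and neither passed. Of the other pathway genes Aph1b alone was called, at 29.8 CPM in KO against 20.1 CPM in WT (0.53, SE 0.12, FDR 0.0216). No marker gene was called in this comparison, where the list medians ran from -0.49 (choroid plexus) to 0.27 (nuclear-retained RNAs). Older diestrus mice gave no calls among all genes (0%, with 475 genes and no member at an unadjusted p under 0.05, and 0 to 27 genes called by 5 other analyses). App differed there by -0.05 (SE 0.16, FDR 1.00).

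Estrous stages other than diestrus were compared within each genotype. In WT, proestrus against estrus called 1102 genes (6.82%) and 1 member. Aph1a was higher in proestrus (10.6, 14.5, 16.9, 18.9 and 18.9 CPM) than in estrus, where 7 mice ran from 10.9 to 14.8 CPM with a median of 12.9. The difference was 0.41 (SE 0.13, FDR 0.0418, limma), the ranges overlapped, and WT proestrus mouse 5 had the lowest Aph1a level of both groups. That mouse also had the lowest quality weight of all 55 mice (0.19). Without quality weights the difference was 0.32 (SE 0.14, FDR 0.366, limma). The call held in 4 of 8 other analyses (FDR 0.0301 to 0.366, not with edgeR or DESeq2) and was lost without any of 11 single mice (FDR 0.187 without WT proestrus mouse 3). Choroid plexus markers moved with this comparison, since 8 of 9 were higher in proestrus (131 to 1981 against 125 to 237 CPM in sum), as were 3 of 15 oligodendrocyte markers, and their part in the Aph1a difference was not tested. Bace1 was 0.23 lower in proestrus (SE 0.08) and did not pass (FDR 0.0726). App differed by -0.07 (SE 0.14, FDR 0.818).

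In KO, metestrus against proestrus called 706 genes (4.37%) and again 1 member. Psen2 had 8.41, 10.1, 10.9, 11.2 and 11.7 CPM in metestrus and 13.7, 14.0, 14.9 and 15.8 CPM in proestrus, so that the groups did not overlap. The difference was -0.45 (SE 0.13, FDR 0.0393, limma). Ages differed as well, at 13.29 to 22.57 weeks in metestrus and 13 to 14.57 weeks in proestrus. With age in weeks as a covariate the difference was -0.66 (SE 0.13, FDR 0.00507, limma). Psen2 passed in 3 of 8 other analyses (FDR 0.00507 to 0.221, not with edgeR or DESeq2) and not without any of 11 single mice (FDR 0.148 without KO proestrus mouse 1). Psenen (-0.39, SE 0.12, FDR 0.0556) and Aplp1 (-0.45, SE 0.18, FDR 0.130) had differences of that size without passing, and App differed by -0.22 (SE 0.16, FDR 0.397). With only the mice compared in the fit, and so no diestrus mice, Aplp1 differed by -0.425 (SE 0.09, FDR 0.0372, limma). Of the marker lists, 2 of 8 neuron markers, 1 of 6 hippocampal markers and 1 of 7 nuclear-retained RNAs passed as higher in metestrus, and none passed as lower. The list medians were 0.12 for neurons, -0.08 for hippocampal markers, -0.60 for nuclear-retained RNAs, -0.49 for mitochondrial mRNA and -1.84 for the choroid plexus, and the part of these transcripts was not tested. A model with 12 groups gave the younger diestrus mice means of their own and held a term for younger mice outside diestrus. Psen2 and Aph1a were called there in their comparisons as well (FDR 0.00588 and 0.0327).

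The remaining stage comparisons called no member. WT metestrus against proestrus called 0.767% of all genes, KO proestrus against estrus 0.507%, and WT and KO metestrus against estrus 0% each. At an unadjusted p under 0.05 the members numbered 1, 2, 0 and 0 in that order, and in the metestrus against estrus comparisons 705 genes (WT) and 1367 genes (KO) reached it, where 8 other analyses called 0 to 17 genes in WT and 0 in KO. App was within 0.12 log2 units of equality in all 4. The closest to a call was Psen2 in KO proestrus against estrus (0.37, SE 0.13, FDR 0.119).

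**Figure D5:**
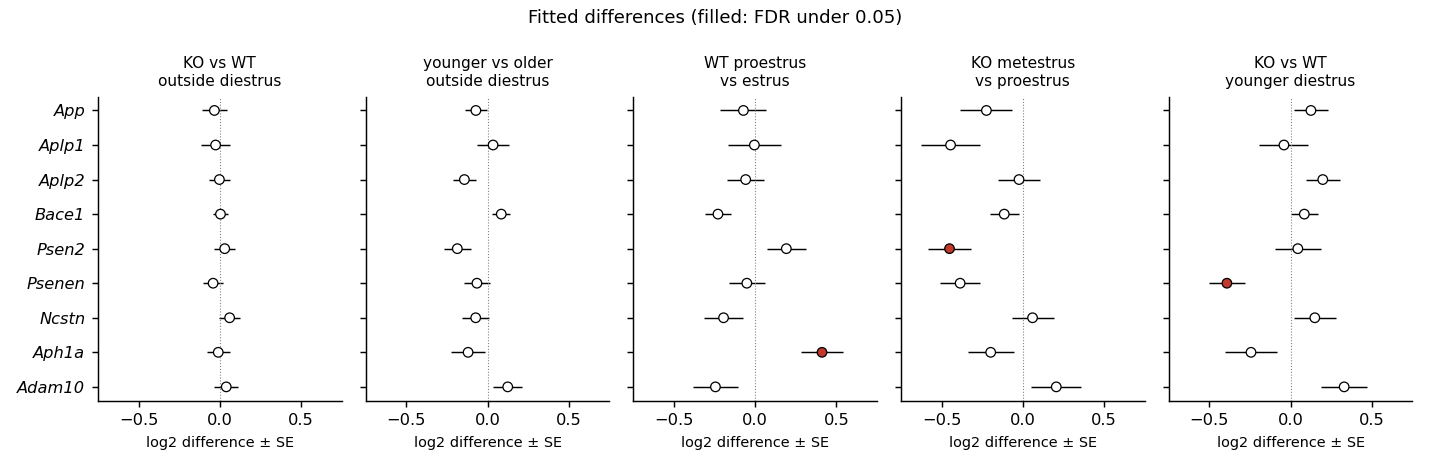
Fitted log2 difference with its SE for each of the 9 genes in 5 tested comparisons (first group minus second), with filled points for an FDR under 0.05. Aph1a in WT proestrus against estrus, Psen2 in KO metestrus against proestrus and Psenen in KO against WT younger diestrus are filled, and App is open in each panel.

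Sex and age were tested without diestrus. Females in metestrus, proestrus and estrus against males called no member in WT (0.0371% of all genes called, no member with an unadjusted p under 0.05) or in KO (2.09% called, 3 members with an unadjusted p under 0.05, of which Aph1a had the smallest FDR, 0.105). App differed by -0.05 (SE 0.15) in WT and -0.11 (SE 0.11) in KO. Ages were unequal in KO. The males were 18.29 to 23.71 weeks old, while the females began at 13 weeks in proestrus and estrus and at 13.29 weeks in metestrus. Younger against older mice outside diestrus called no member among 79 genes (0.489%). The unadjusted p was under 0.05 for Psen2 (-0.19, SE 0.08, FDR 0.276) and Aplp2 (-0.14, SE 0.07, FDR 0.313). The 10 younger and 33 older mice overlapped in all 9 genes.

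Whether the genotypes differed in a stage or sex difference was tested by interaction. No gene was called in metestrus against proestrus, metestrus against estrus, proestrus against estrus or females against males (0% each), where 2648, 533, 2480 and 417 genes had an unadjusted p under 0.05. Other analyses of all mice called 0 to 3 genes, and leaving out WT proestrus mouse 4 gave 149 genes in metestrus against proestrus and 140 in proestrus against estrus, none of them a member. The Psen2 difference in KO and the Aph1a difference in WT were therefore not shown to belong to a genotype. For App the interactions lay between -0.20 (SE 0.22) and 0.19 (SE 0.21).

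Other pathway genes passed in some of these tests. In WT proestrus 7 of 53 were higher and 1 lower than in estrus, where 6.82% of all genes were called and 8 of 9 choroid plexus and 3 of 15 oligodendrocyte markers were higher. The part of these markers was not tested. The adaptor gene Apba3 was 0.69 higher (SE 0.14, FDR 0.00296), Gga1, which sorts cargo at the Golgi, 0.88 higher (SE 0.20, FDR 0.00615) and the scaffold gene Mapk8ip1 0.44 higher (SE 0.10, FDR 0.00658). Apba3, Mapk8ip1 and Apbb3 were also the 3 genes lower in WT metestrus than in proestrus (-0.66, -0.44 and -0.39, 0.767% of all genes called). In KO metestrus Gga3 was 0.29 higher (SE 0.07, FDR 0.0287) and Pcsk1n 0.72 lower (SE 0.22, FDR 0.0442) than in proestrus, and Rer1, a retention factor of the early secretory pathway, was 0.40 higher in KO proestrus than in estrus (SE 0.10, FDR 0.0494). Of all genes, 4.37% and 0.507% were called in these comparisons. Apbb3 and Itm2c were lower in KO females than in males (-0.40 and -0.35, 2.09% of all genes called). Both were also lower in younger than in older mice outside diestrus (-0.27 and -0.35, 0.489% called). No KO male was younger than 18.29 weeks, so sex and age were partly confounded in KO. The part of age in these sex differences was not tested. All FDRs are from limma over all genes tested.

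Over the 43 mice outside diestrus, and after group means were removed, the levels of the members were compared with App as a description. Pearson correlations of log2 CPM with App were 0.69 for Aplp1, 0.68 for Bace1, 0.60 for Aplp2 and 0.51 for Adam10. Those of Psen2 (0.27), Ncstn (0.24), Aph1a (-0.04) and Psenen (-0.17) lay within the middle part of all genes, whose quartiles were -0.26 and 0.31. The genes most like App were Itfg1 (0.93), Spock2 (0.88), Creg2 (0.88), Ptprs (0.85) and Slc24a2 (0.85). The least like it were Enoph1, Coq9 and Snx17, each at -0.83. Both values of a point share the library and depth of that mouse.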

How the data were processed

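Reads were aligned by the authors to GRCm38 with STAR 2.7.9a and counted per Ensembl gene with featureCounts 2.0.3, and the deposited gene counts (60.1% of those from 1 to 10 were even, and whether reads or pairs were counted was not tested) were the source of gene values. Repeated lines (287) were dropped and 1 column with no listed mouse was not used. Transcript values were estimated counts and transcript CPM deposited by the authors, made with Salmon 1.5.2, and the table used here holds part of the transcripts. The authors' log2 CPM table served as a check (largest difference 4.97e-14 over 16164 genes).

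In R 4.3.3, low genes (not above 1 CPM in 10 or more libraries) and 5 rRNA genes were removed, and the rest were TMM-scaled (edgeR 4.0.16) and fitted with voomWithQualityWeights and 10 group means in limma 3.58.1, two-sided, with Benjamini-Hochberg FDR over 16168 genes. A second model split diestrus at 14 weeks (12 groups) with a term for younger mice outside diestrus. CPM in the text are TMM-scaled. Groups come from the labels and parents from the study's records. Named genes were the 9 members, App transcripts with at least 5% of counts, other pathway genes called (at most 3 by FDR per comparison) or needed to show a role, and the 5 most and 3 least like App, beside Cnih3 and marker genes. App-204 was named after its values were seen. The members and lists were chosen with earlier results of these data known. Alternatives were edgeR's quasi-likelihood test, DESeq2 1.42.0, its size factors in limma, no quality weights, no filter, age as a covariate, the 12-group model, only the mice compared, only mice of CNIH3 x B6 parents, and each of the 55 mice left out. Interactions under these alternatives, a random block for mice whose titles share a prefix, and the App-205 share in younger diestrus were added after the data were seen. Shares were tested with 100000 permutations, or exactly in younger diestrus. Positions are from GENCODE M21 and promoters from RefSeq GRCm38.p6. Steps were tested on simulated data. One gene of the pathway lists is not reported here by name.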

Additional observations from a re-analysis of the deposited data

Results flagged for a closer look

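A mouse stood far from the rest of its group, by Dixon's ratio at its 95% critical value, in 8 of 90 pairs of a member and a group, involving 7 mice, where chance gives about 1 in 20. The share of App-205 gave no such mouse in 10 groups. For App these were KO metestrus mouse 5 at 383 CPM (median of the others 466.2), WT estrus mouse 5 at 420 CPM (537) and WT metestrus mouse 2 at 458 CPM (514), each the lowest of its group. WT proestrus mouse 5 was the lowest for Adam10, at 28.8 CPM (56.6), and the highest for Psenen, at 114 CPM (64.3). Aph1a was lowest in KO proestrus mouse 4 at 12.4 CPM (15.3), Ncstn lowest in KO estrus mouse 5 at 31.6 CPM (43.1), and Psen2 highest in KO male mouse 6 at 18.2 CPM (13.4). None of the 3 low App values reached the range of the younger diestrus mice, 187 to 276 CPM.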

How the results depend on the processing

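Of the counts of members called, 134 of 151 values under alternatives were within 1.5 times the reported ones. In WT proestrus against estrus (1 reported) the count was 0 with edgeR, DESeq2, no quality weights and no filter, and 2 with 12 groups, where Bace1 joined Aph1a (FDR 0.0237). In KO metestrus against proestrus (1 reported) it was 0 with the same 4 alternatives and 2 with 12 groups, where Psenen joined Psen2 (FDR 0.0152). With only the mice compared it was 1, but Aplp1 (FDR 0.0372) and not Psen2. KO proestrus against estrus (0 reported) gave 1 with age as a covariate and 2 with 12 groups. KO against WT younger diestrus (1 reported) gave 0 with edgeR, DESeq2, DESeq2 size factors, no quality weights and no filter. The cause was not tested.

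With single mice left out the counts ran from 0 to 2 in WT proestrus against estrus and in KO metestrus against proestrus, and from 0 to 1 in KO females against males and in KO against WT younger diestrus. Aph1a lost its call without any of WT estrus mice 1 to 4, WT proestrus mice 2 to 4, KO estrus mice 2 and 6, WT diestrus mouse 1 or WT male mouse 5 (FDR up to 0.187). Psen2 lost its call without any of KO metestrus mice 1 to 3, KO proestrus mice 1 to 4, WT estrus mice 1 and 4, WT metestrus mouse 1 or KO male mouse 5 (FDR up to 0.148). Psenen in younger diestrus lost its call in 27 of 55 cases (FDR up to 0.224), namely without WT diestrus mice 2 to 5, KO diestrus mice 1, 2, 5 and 6, WT estrus mice 1, 4 and 7, KO estrus mice 1, 3 and 5, WT proestrus mice 2 to 4, KO proestrus mice 1 and 3, WT metestrus mice 1 to 4, KO metestrus mouse 3, WT male mouse 4 or KO male mice 4 and 7. Aph1a passed in KO females against males without KO male mouse 1 or 3 (FDR down to 0.0201), Bace1 in WT proestrus against estrus without WT diestrus mouse 3 or 5 (FDR down to 0.0480), and Psenen in KO metestrus against proestrus without KO male mouse 3, WT diestrus mouse 4 or 6, KO metestrus mouse 4 or WT proestrus mouse 5 (FDR down to 0.0342).

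No result changed direction past a threshold. App over genotypes outside diestrus ran from -0.17 to -0.02 over 9 alternatives, the lowest with only mice of CNIH3 x B6 parents (FDR 0.410). Over 7 alternatives, App in younger against older mice outside diestrus had FDRs from 0.565 to 0.999. Over the alternatives other than single mice and the title prefix, all genes called ran from 0 to 1597 in WT proestrus against estrus (1102 reported), 0 to 1192 in KO metestrus against proestrus (706), 4 to 1651 in KO proestrus against estrus (82), 0 to 242 in KO against WT younger diestrus (285), 91 to 1518 over genotypes outside diestrus (361), 14 to 333 in KO females against males (338), 0 to 212 in WT metestrus against proestrus (124) and 6 to 382 in younger against older mice outside diestrus (79). With single mice left out these counts ran, in the same order, from 561 (without WT proestrus mouse 3) to 1686 (WT proestrus mouse 4), 1 (KO proestrus mouse 1) to 1098 (KO metestrus mouse 4), 3 (KO proestrus mouse 1 or KO estrus mouse 3) to 306 (KO estrus mouse 5), 0 (KO diestrus mouse 2 or 5 or WT diestrus mouse 4) to 853 (KO diestrus mouse 3), 218 (KO proestrus mouse 2) to 507 (WT male mouse 5), 17 (KO male mouse 7) to 725 (KO male mouse 3), 0 (WT proestrus mouse 3) to 461 (WT metestrus mouse 4) and 1 (KO metestrus mouse 3) to 445 (WT male mouse 1). DESeq2 left up to 3764 genes without an adjusted p. Psen2 and Aph1a had the lowest counts, at least 261 and 351 per mouse. No paired analysis was made because replicate numbers here only name mice and pair none. The titles of 26 mice share a prefix with a mouse of another group, which the labels do not explain, and with this prefix as a random block (correlation -0.00248 with 10 groups, 0.0635 with 12) the members called were Aph1a (FDR 0.0419), Psen2 (0.0398) and Psenen (0.0482) in the comparisons reported.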
